A study of Eohaustorius estuarius with 16 samples.

Results

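The arrays described here are the 12 of 16 on which contig_130, an assembled transcript fragment of the estuarine amphipod Eohaustorius estuarius, lay above the 75th percentile of its array. They comprise control replicates 1, 2, 3, 6, 7 and 8 and cyfluthrin replicates 1, 2, 3, 5, 6 and 8. Control replicates 4 and 5 and cyfluthrin replicates 4 and 7, on which contig_130 lay below that percentile, were set aside. The question was how cyfluthrin and control arrays differed once only arrays with a high contig_130 signal were compared, and which differences were called only then.

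Both groups were exposed in spiked sediment for 10 days. Controls received the solvent alone, and the treated group received cyfluthrin at a nominal 1.6 µg/kg. Whole-body total RNA extracts were labelled with Cy3 and hybridised to 1-colour Agilent arrays at laboratory B of an interlaboratory comparison. How many animals went into an extract, and which of them were kept in one container, is not given by the labels. The p-values therefore measure only the spread between these samples.

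Cyfluthrin is a pyrethroid insecticide. Pyrethroids slow the closing of voltage-gated sodium channels in nerve membranes, which causes repeated firing, and they bind strongly to sediment. Burrowing amphipods such as Eohaustorius estuarius live in contact with that sediment and are therefore used as test animals for it. The contigs on these arrays are known by number alone, and neither names nor sequences were used here, so no contig is assigned a protein or a function. Because whole bodies were extracted, fewer cells of a type and less RNA per cell cannot be told apart.

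Each level below is a scaled log2 signal, the log2 processed signal of a contig minus the log2 of the 75th percentile of the contig spots on the same array. Levels of different contigs come from different probes and were not set against each other. The level of contig_130 was 4.91 at its lowest, 6.13 at the median and 6.96 at its highest on the 6 control arrays kept. On the 6 cyfluthrin arrays kept it was 1.17, 4.15 and 6.77. The means were 6.04 ± 0.73 and 4.14 ± 1.80 (SD, n = 6 each), and the groups overlapped. The arrays set aside had levels of -3.60 and -3.44 in control and -2.76 and -3.05 in cyfluthrin. The array just inside the limit of 0 was cyfluthrin replicate 2 at 1.17, and the one just outside was cyfluthrin replicate 4 at -2.76, so no array lay close to the limit. These values chose the arrays and are given as a description, with no test.

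**Figure D1:**
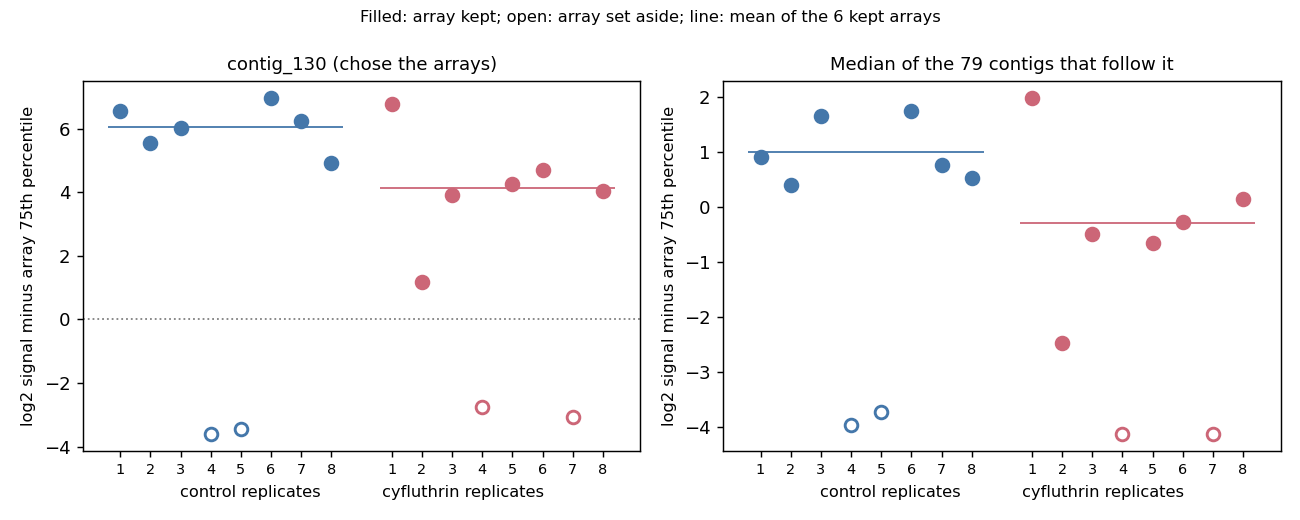
Scaled log2 signal of contig_130 (left) and the median of 79 contigs at least 4-fold higher where contig_130 was high (right) on each array, by treatment, with kept arrays filled, arrays set aside open, lines at the means of the 6 kept and a dotted line at the limit of 0. For contig_130 the 12 arrays kept sit between 1.17 and 6.96, and the 4 set aside between -3.60 and -2.76.

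The 12 arrays were alike in brightness. The 75th percentile of the processed signal had a mean of 617 (SD 103, n = 6) on the control arrays and 648 (SD 96.2, n = 6) on the cyfluthrin arrays, a difference smaller than the spread between arrays (exact permutation p = 0.600, 2-sided, adjusted p = 0.799 over 4 measures). The share of contig spots well above background was 87.9% in both groups, with SDs of 3.45 and 5.79 (exact permutation p = 1). The spike-in probes, which detect RNA added in known amounts, lay 0.87 ± 0.34 log2 units above the 75th percentile in control and 1.27 ± 0.39 in cyfluthrin (exact permutation p = 0.102, adjusted p = 0.203). Control replicate 3 was the lowest of them at 0.20, and its part in the results that scaling to the spike-in probes changes was not tested.

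On the 12 arrays 333 of 7574 tested contigs differed between cyfluthrin and control, 4.40% (limma, Benjamini-Hochberg adjusted p under 0.05). Of these 201, or 2.65% of those tested, were higher with cyfluthrin and 132, or 1.74%, were lower. The rises had a median of 0.81 on the log2 scale and the falls one of -0.70, against -0.04 over all contigs tested. Of the 333, 106 changed at least 2-fold, 68 higher and 38 lower. Among the 333, a 4-fold change or more was reached by 35 rises and 8 falls, and all 21 changes of at least 8-fold were rises. Over all tested contigs, whether past the threshold or not, 94 rises and 176 falls reached 2-fold. There, 35 rises and 27 falls reached 4-fold, and 21 rises and 7 falls reached 8-fold. Here and below, a change is cyfluthrin minus control, and a called contig is one past this threshold.

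With all 16 arrays, 561 contigs were called, 7.41% of those tested, 284 higher and 277 lower. Rises made up 60.4% of the calls on the 12 arrays and 50.6% of those on all 16. Fewer falls than rises thus stayed past the threshold, although with scaling to the spike-in probes rises were 43.5% of the calls on the 12 arrays. In the dimmest band of 2525 contigs, 33 rose and 4 fell on the 12 arrays. In the middle band of 2524 contigs 89 rose and 27 fell, and in the brightest band of 2525 contigs 79 rose and 101 fell. The brightest band was also where most falls were no longer called, 113 of the 158 falls called on 16 arrays alone.

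Between the 2 sets of calls, 282 contigs were shared, which is 84.7% of the 333 called on the 12 arrays and 50.3% of the 561 called on all 16. A further 51 contigs were called on the 12 arrays alone, 38 higher and 13 lower with cyfluthrin. The other 279 were called on all 16 arrays alone, 121 higher and 158 lower. The fits share 12 arrays, and a call in one and not in the other is no test of a difference between them. The signal ranges of the groups did not overlap on the 12 arrays for 343 of all tested contigs, 4.53%. They did not overlap for 216 of the 282 shared contigs, 26 of the 51 and 37 of the 279, lists that were chosen in part on these same values.

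Among the shared contigs, contig_2303 showed the greatest rise. Its level was -3.08 at the lowest, -1.11 at the median and 0.22 at the highest on the control arrays, and 1.94, 2.77 and 3.58 on the cyfluthrin arrays. Every cyfluthrin array lay above every control array. The rise was 4.03 on the log2 scale (SE 0.45), 16.3-fold, with limma adjusted p = 2.88e-04. On the 4 arrays set aside, which this fit did not use, the same contig was higher with cyfluthrin by 3.42.

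The second, contig_4609, was at -4.40, -3.61 and -2.23 (lowest, median, highest) in control and at -0.63, 0.30 and 1.0 in cyfluthrin, again without overlap. It rose by 3.74 (SE 0.35), 13.4-fold, with limma adjusted p = 1.14e-04, or by 2.66 with normexp background correction. Its difference on the arrays set aside was 3.70. This contig and contig_2303 thus had differences of a similar order on both sets of arrays.

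The greatest fall among the shared contigs was that of contig_2561, at 2.18, 2.73 and 2.96 in control and -0.17, 0.06 and 0.68 in cyfluthrin. All 6 cyfluthrin arrays lay below all 6 control arrays, and the change was -2.48 (SE 0.19), 5.58-fold lower, with limma adjusted p = 3.24e-05. On the arrays set aside it was -3.03. For contig_1777, printed as 1 spot per array, the levels were 3.88, 4.58 and 5.48 in control and 1.36, 2.12 and 2.94 in cyfluthrin, without overlap. Its change was -2.46 (SE 0.30), 5.51-fold lower (limma adjusted p = 5.72e-04), against -1.52 on the arrays set aside.

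The 51 contigs called only on the 12 arrays had moderate changes. The 38 that rose did so by 0.36 to 1.35 on the log2 scale, with a median of 0.79, and the 13 that fell had changes of -2.27 to -0.43, with a median of -0.61. Of the 51, 11 changed at least 2-fold, 2 at least 4-fold and 0 at least 8-fold. All 51 had the same direction on 16 arrays, as had 6534 of all 7574 tested contigs, and 12 of those arrays had called them. On 16 arrays their median size was 0.54 in place of 0.69. Their limma adjusted p on 16 arrays ran from 0.0504 to 0.316, with a median of 0.079. Before adjustment, 49 of the 51 passed 0.05 on 16 arrays, as did 1652 of all 7574 tested contigs.

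Both the size of the change and the spread moved for these contigs when the 4 arrays were set aside. The change was larger on the 12 arrays for 49 of the 51, the SE was smaller for 43 and the residual SD was smaller for all 51. Their median ratio of the SE on 12 arrays to that on 16 was 0.90, and that of the residual SD was 0.74. Over all tested contigs the SE ratio was 1.17, close to the 1.15 that the smaller number of arrays alone would give, and the residual SD ratio was 1.02. The list was picked by its calls in both fits, so these ratios describe it and do not test it.

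Contig_6633 ranked first by rise among the 51 with the scaling used, a rank that rests on a dim signal, with spots well above background on 2 of 6 control arrays and on 6 of 6 cyfluthrin arrays. Its level was -6.20, -5.81 and -4.62 (lowest, median, highest) in control and -5.35, -4.12 and -3.76 in cyfluthrin. Of the 6 cyfluthrin arrays, 5 lay above every control array. The fitted difference was 1.35 (SE 0.30), with limma adjusted p = 0.0290, against 1.12 and adjusted p = 0.0571 on 16 arrays. Since 4 of the 6 control arrays kept were not well above background, its size is not fixed by the data and no fold is given. With normexp background correction the difference was 0.57 (limma adjusted p = 0.610), against 1.08 for contig_866. Among the arrays set aside, control replicate 5 was at -3.86, above all 6 of the control arrays kept, and cyfluthrin replicate 4 was at -5.13, below all but 1 of the cyfluthrin arrays kept.

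Contig_866 was at -0.77, -0.04 and 0.43 in control and 0.13, 1.21 and 1.49 in cyfluthrin. The groups overlapped through a single cyfluthrin array, replicate 8. It rose by 1.17 (SE 0.25), 2.25-fold, with limma adjusted p = 0.0252, against 0.93 and adjusted p = 0.0712 on 16 arrays. Control replicate 5 at 1.0 and cyfluthrin replicate 4 at -0.31 each lay on the other group's side, while control replicate 4 at 0.14 and cyfluthrin replicate 7 at 1.82 lay on their own.

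The greatest falls among the 51 were those of contig_7011 and contig_2182. Contig_7011, printed as 1 spot, was at 3.22, 4.35 and 5.88 in control and 0.83, 2.21 and 3.05 in cyfluthrin, without overlap. Its change was -2.27 (SE 0.51), 4.81-fold lower, with limma adjusted p = 0.0302, against -1.71 and adjusted p = 0.0593 on 16 arrays. Control replicates 4 and 5 were at 3.97 and 2.10 and cyfluthrin replicates 4 and 7 at 4.18 and 1.81. One control and one cyfluthrin array set aside thus lay within the range of the opposite group.

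Contig_2182 was at 2.69, 4.26 and 5.82 in control and 0.79, 2.10 and 2.95 in cyfluthrin, and 4 of the 6 cyfluthrin arrays lay below every control array. Its change was -2.14 (SE 0.54), 4.40-fold lower, with limma adjusted p = 0.0460, against -1.66 and adjusted p = 0.0672 on 16 arrays. Over the 16 arrays, which share their treatment groups, the levels of contig_2182 and contig_7011 followed each other with a Pearson correlation of 0.994. Whether the pair are fragments of one transcript was not tested.

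The calls of these 4 contigs differed in how often they held under other scalings, filters, models and array choices. That of contig_6633 was lost in 14 of 27 alternatives, with changes of 0.57 to 1.94, and that of contig_866 in 9 of 28, with changes of 0.78 to 1.37. Contig_7011 lost its call in 7 of 28, with changes of -3.25 to -1.28, and contig_2182 in 23 of 28, with changes of -3.26 to -1.01. The direction of all 4 was kept throughout, but most alternatives used the same arrays that had chosen these contigs. On the arrays set aside the change was 0.41 for contig_6633 and 0.19 for contig_866. It was -0.05 for contig_7011 and -0.21 for contig_2182. Among the shared contigs, the calls of contig_2303 and contig_4609 were lost in 2 of 28 alternatives each, that of contig_2561 in 1 and that of contig_1777 in 3. Their changes ran from 3.32 to 4.74 for contig_2303 and from 2.66 to 4.26 for contig_4609. For contig_2561 they ran from -2.88 to -2.30, and for contig_1777 from -2.86 to -2.24.

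**Figure D2:**
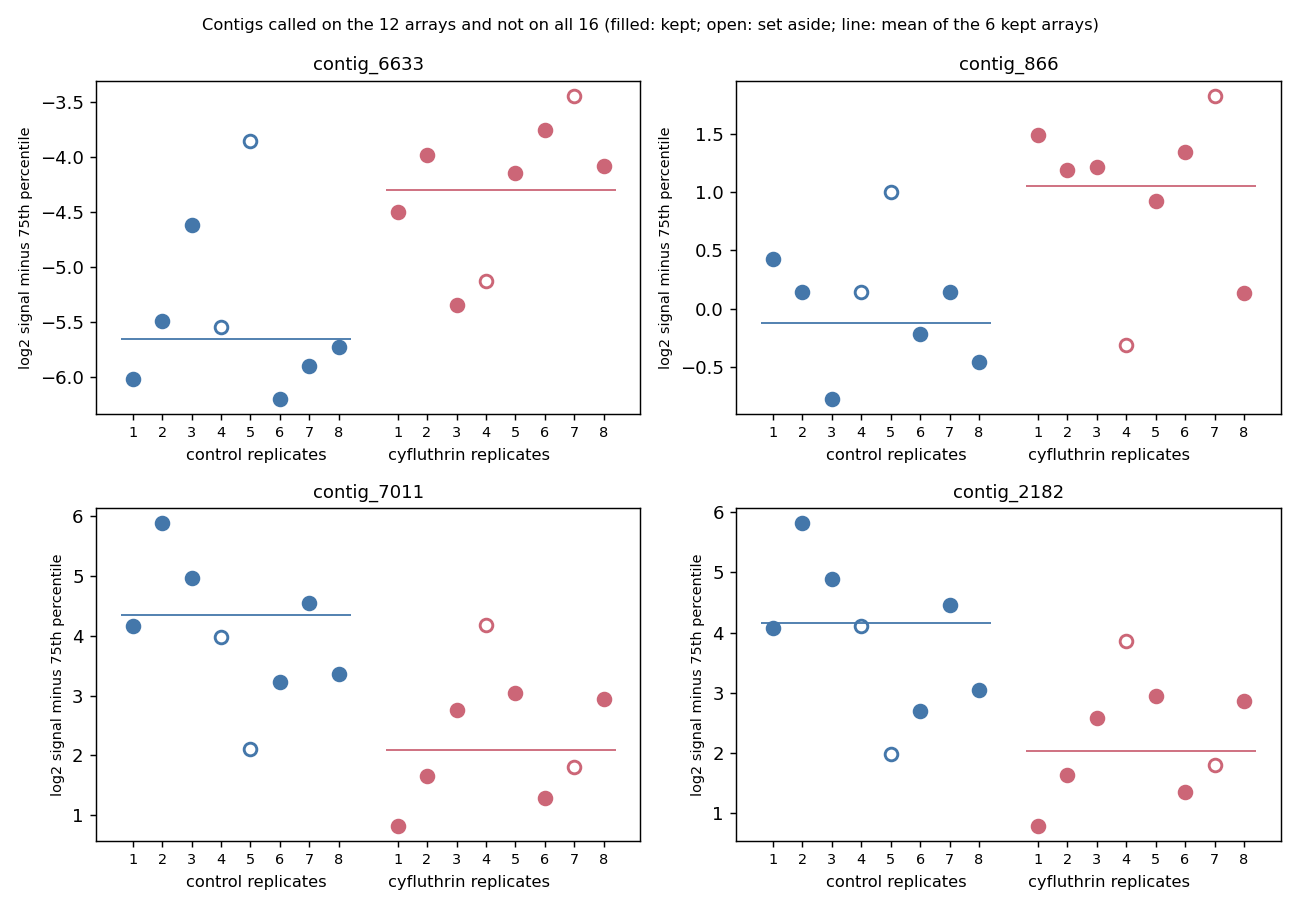
Scaled log2 signal (vertical axes) of the 4 contigs named among those called only on the 12 arrays, on each array by treatment, with kept arrays filled, arrays set aside open and lines at the means of the 6 kept. For contig_866, contig_7011 and contig_2182, control replicate 5 and cyfluthrin replicate 4 lie towards the other group.

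The named contigs that were called on 16 arrays and no longer on the 12 kept their direction. Contig_6510 was at -2.67, -2.37 and -2.11 in control and -1.92, -1.54 and 0.60 in cyfluthrin. The groups did not overlap, and the difference of 1.35 (SE 0.42) had a limma adjusted p of 0.0885, against 1.45 and 0.0141 on 16 arrays. For contig_7258 the difference was 1.21 (SE 0.39, limma adjusted p = 0.102), against 1.13 and 0.0294 on 16 arrays.

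On the falling side, contig_6751 differed by -1.37 (SE 0.39, limma adjusted p = 0.0638), against -1.55 and 0.00758 on 16 arrays. Contig_1834, a single dim spot well above background on 5 control and 3 cyfluthrin arrays, differed by -1.23 (SE 0.45, limma adjusted p = 0.143), against -1.42 and 0.0386. Across the 279 contigs, the median ratio of the change on 12 arrays to that on 16 was 0.96, while the SE ratio was 1.20. Under the alternatives, contig_6751 was called on the 12 arrays in 4 of 28: with spike-in scaling (-1.76, limma adjusted p = 0.0336), with array weights (-1.46, 0.0179), among contigs well above background on every array (-1.37, 0.0495) and without cyfluthrin replicate 1 (-1.65, 0.0140). Contig_1834 was called in 2 of 27, with quantile normalization (-1.17, 0.0236) and with the authors' deposited values (-1.20, 0.0240), and turned to 0.0486 (0.958) with normexp. Contig_6510 and contig_7258 were called in 0 of 28 each. An unadjusted p under 0.05 remained on the 12 arrays for 277 of the 279, with limma adjusted p from 0.0502 to 0.262.

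The low arrays were also set aside in smaller steps. Because the 51 contigs were defined by setting these arrays aside, how many of them each step calls is in part fixed by that choice. With cyfluthrin replicate 4 alone set aside, 44 of the 51 were called, among 397 rises and 394 falls in all. With control replicate 5 alone set aside, 22 of the 51 were called, among 291 rises and 244 falls. Cyfluthrin replicate 7 alone gave 2 of the 51, and control replicate 4 alone gave 0 of the 51, with 431 and 429 calls in all. A fit on all 16 arrays with the contig_130 class as a block called 0 of the 51, among 275 rises and 274 falls, and 279 of the 333.

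The same arrays stood out when the signal of each of the 51 contigs was placed between the group means of the 12 arrays. Cyfluthrin replicate 4 was nearer the control mean for 45 of the 51 contigs, while control replicate 5 was nearer it for 7. Cyfluthrin replicate 7 was nearer the control mean for 5 of them, and control replicate 4 for 33. For the 282 shared contigs the control mean was nearer on cyfluthrin replicate 4 for 81 and on control replicate 5 for 231. These positions are in part fixed by how the 51 were chosen, since a contig reaches the list when the arrays set aside weaken its call.

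**Figure D3:**
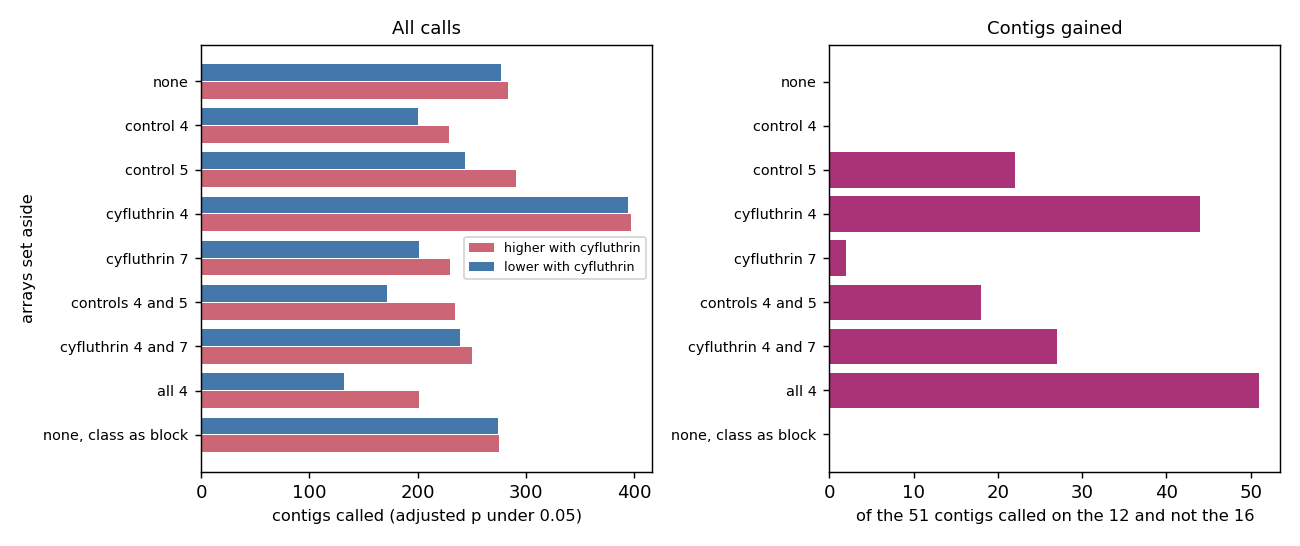
Number of contigs called in each direction (limma adjusted p under 0.05) as the contig_130-low arrays are set aside singly, in pairs and together, and with the contig_130 class as a block (left), and how many of the 51 contigs each setting calls (right). Calls run from 333 with all 4 set aside to 791 with cyfluthrin replicate 4 alone set aside.

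The direct test of whether the cyfluthrin change differed between arrays with high and low contig_130, the interaction of treatment and class over all 16 arrays, called 0 contigs with limma. Its lowest adjusted p was 0.751, and 435 contigs, 5.74%, had an unadjusted p under 0.05. The count was also 0 with a trended robust variance and with array weights, and it was 12 when cyfluthrin replicate 7 was left out. That fit has 1 cyfluthrin array in the low class, which is assumed to vary like the other groups. An unadjusted limma interaction p under 0.05 was found for 12 of the 51 contigs, 23.5%. It was found for 13 of the 282, 4.61%, and for 5 of the 279, 1.79%. Membership of these lists rests in part on the same low arrays, so the counts are partly fixed by that choice and test nothing. With 2 control and 2 cyfluthrin arrays in the low class the test had little precision, and the call of a contig on the 12 arrays alone was not shown to mark a change specific to them. For contig_7011 the interaction was -2.22 (SE 1.15), with an unadjusted p of 0.0732.

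Contigs called on the 12 arrays could be looked at in the 4 arrays that the calls did not use. There 314 of the 333, 94.3%, had the same direction of change, against 56.4% of all tested contigs. By direction these were 185 of the 201 rises and 129 of the 132 falls. The count was 280 of 282 for the shared contigs and 34 of 51 for those called only on the 12 arrays, but membership of these lists rests in part on the same 4 arrays. The same direction with an unadjusted limma p under 0.05 was found for 165 of the 333, 49.5%, against 8.33% of all tested contigs. The spread behind this p came from a fit to all arrays, the 12 included. The calls favoured contigs with a small spread on those 12 arrays, which also lowers this p. The share by p is therefore no independent test of the calls. The share by direction did not use that spread, but it rests on the 4 arrays alone and was not tested.

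The median change on the 4 arrays was 0.42 for the contigs that rose on the 12, where it was 0.81, and -0.72 for those that fell, where it was -0.70. The median over all tested contigs was 0.08 on the 4 arrays and -0.04 on the 12. The value for the rises ran from 0.27 with median scaling to 0.75 with normexp background correction, under which the median of all contigs was 0.67. Leaving out cyfluthrin replicate 4 gave 0.63. With 2 arrays per group these medians carry no test of a difference between the classes.

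**Figure D4:**
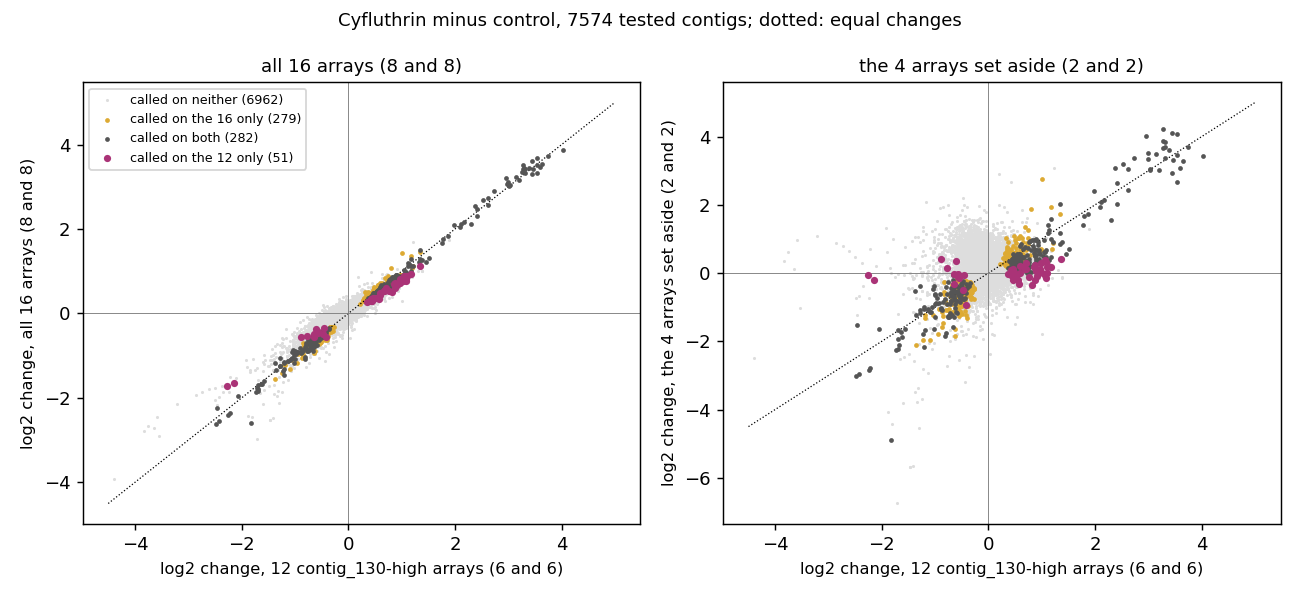
Log2 change with cyfluthrin on the 12 arrays (horizontal axis) against the change on all 16 arrays and on the 4 arrays set aside (vertical axes), 1 point per contig, coloured by the fit that called it, with equal changes on the dotted line. The contigs called in both fits keep their direction on the 4 arrays for 280 of 282, those called only on the 12 for 34 of 51.

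The share of the variance among the 12 arrays that lay between the treatments was 18.1%, against a mean of 9.09% over all 924 ways to choose 6 of them (exact permutation p = 0.0195, 1-sided). Over 16 arrays the share was 13.6%, against a mean of 6.67% over all 12870 choices (exact permutation p = 0.0188, 1-sided). In a principal component analysis of the 12 arrays the first component held 35.0% of the variance, and treatment accounted for 8.02% of its scores. The second component held 20.2%, with 64.6% of its scores between the treatments. The share had an exact permutation p above 0.05 without control replicate 3 (16.1%, p = 0.0909), without cyfluthrin replicate 3 (16.8%, p = 0.0584) and without cyfluthrin replicate 5 (17.3%, p = 0.0584).

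Cyfluthrin arrays resembled each other less than control arrays did. When each array was correlated with the rest of its group, the mean Pearson correlation ran from 0.962 to 0.975 in control and from 0.928 to 0.956 in cyfluthrin, so the groups did not overlap. The means were 0.968 and 0.943, a difference of -0.0252 (label permutation p = 0.00216, 2-sided, the smallest that 6 against 6 arrays allow, adjusted p = 0.00866). Over all 16 arrays the difference was -0.0133 and the groups overlapped (label permutation p = 0.0208). The means there were 0.955 in control and 0.942 in cyfluthrin, so it was mainly the control mean that differed between the 2 sets of arrays. Without contig_130 and the contigs that follow it, the difference on the 12 arrays was -0.0206. Each array's mean correlation was computed once with the true groups, and only the labels of these values were shuffled. Arrays of a group also share pairs in this measure, so both p-values are approximate and may be too small. The SD between arrays was higher with cyfluthrin for 80.2% of tested contigs on the 12 arrays and for 75.7% on the 16.

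A set of 79 contigs besides contig_130 was at least 4-fold higher on the high than on the low arrays in both treatments, and 3 were at least 4-fold lower. The set was chosen on that contrast, so it is described and not tested for it. On the 12 arrays 76 of the 79 had a lower mean with cyfluthrin, against 55.8% of all tested contigs, with a median change of -1.02. Of the 79, 0 passed the limma threshold on the 12 arrays, where 4.40% of all tested contigs did, and 0 on the 16, where 7.41% did. Their lowest adjusted p on the 12 was 0.0632, and 11, or 13.9%, had an unadjusted p under 0.05, against 19.8% of all tested contigs. Over the 16 arrays their Pearson correlation with contig_130 varied, for example 0.989 for contig_3092 and 0.436 for contig_4000. These correlations are in part fixed by how the set was chosen, and whether the 79 vary together beyond that was not tested. Their median level was 0.40 to 1.75 on the control arrays kept and -2.47 to 1.99 on the cyfluthrin arrays kept. Cyfluthrin replicate 2, which had the lowest contig_130 of the 12, was the lowest, and cyfluthrin replicate 1 was the highest.

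Without cyfluthrin replicate 2 the median change of the 79 was -0.58 and 64 of them were lower. Setting the 4 low arrays aside reduced the residual SD of 76 of the 79 contigs, with a median ratio of 0.63, which follows from how the arrays were chosen. None of the 51, the 279 or the 282 contigs belonged to the 79, which are 1.04% of the contigs tested.

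The 12 arrays lay on 2 slides with 3 control and 3 cyfluthrin arrays each. On a slide each group filled 1 of the 2 rows, in opposite order on the other slide, so within a slide treatment and row cannot be told apart. Over both slides, with row as a block, 176 rises and 114 falls were called, 32 of the 51 contigs among them. Within slide 1 limma called 0 contigs, and 710 had an unadjusted p under 0.05. Within slide 2 it called 11 rises and 1 fall, and 658 had an unadjusted p under 0.05. All 51 contigs had the same direction on both slides, against 64.5% of all tested contigs, but the same arrays had chosen them. An unadjusted p under 0.05 was reached by 39 of the 51 on slide 1 and by 34 on slide 2. The fall of contig_7011 was -3.25 on slide 1 and -1.28 on slide 2, and that of contig_2182 was -3.26 and -1.01. The difference for contig_6633 was 0.76 and 1.94, and that for contig_866 was 1.37 and 0.98.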

How the data were processed

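Per the file headers, the deposited processed signal of each spot is an intensity from Agilent Feature Extraction 10.7.1.1 (9.1 per the submitters' processing notes), background-subtracted and not normalized between arrays. The authors' deposited value table holds log2 values, used as an alternative. Outlier and control spots were left out, spots of a contig were averaged, and log2 signals were scaled to each array's 75th percentile. Of 8507 contigs, 7574 had at least 50% of their spots well above background on at least 8 of 16 arrays and were tested with limma 3.58.1 in R 4.3.3 (lmFit, eBayes, 2-sided, Benjamini-Hochberg), dropping 4 missing values. The fit was also run on simulated data in which contigs varied independently, which leaves out contigs that follow contig_130. The number of arrays limits the precision. Named contigs were the 2 greatest rises and 2 greatest falls of each list; the interaction list was empty. Members and lists were chosen with earlier results of these data known. Gene lists needed names and were not applied. Normexp (offset 50) used the deposited median signal intensity. Deviations of arrays with the same replicate number correlated at -0.32 to 0.22 over 5 numbers, so they were not treated as pairs.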

Additional observations from a re-analysis of the deposited data

Results flagged for a closer look

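Among the 6 control arrays kept, the spike-in level of control replicate 3 was 0.20 log2 units above the 75th percentile, far from the other 5, which lay between 0.93 and 1.08. Of 34 groups of 6 values examined this was the 1 that stood out, and chance marks about 1 in 20. Its part in the calls under spike-in scaling was not tested.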

How the results depend on the processing

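Counts of calls depended on the processing more than directions did. With 201 rises, 132 falls, 51 contigs called on the 12 arrays alone and 279 on the 16 alone as reported, median scaling gave 116 rises, 61 falls and 30 on the 12 alone. Spike-in scaling gave 37, 48, 1 and 131 on the 16 alone, with rises at 43.5% of calls in place of 60.4%, and normexp gave 69, 48, 16 and 90. The median of all contigs was -0.04 as reported, -0.44 with spike-in scaling and 0.13 with normexp, under which contig_1834 reversed to 0.0486 on the log2 scale. The count on the 12 alone was 92 with quantile normalization, 88 with the authors' values, 81 with contigs well above background on every array, 80 with a trended robust variance and 32 with slide as a block. An adjusted p under 0.1 gave 387 rises, 287 falls and 93 on the 12 alone, one under 0.01 gave 75, 38, 9 and 130 on the 16 alone, and a required 2-fold gave 68, 38, 22 and 17. Within slide 1 there were 0 rises and 0 falls, within slide 2 11 and 1. Falls numbered 239 with only the low cyfluthrin arrays set aside and 274 with the contig_130 class as a block. The variance share was 14.8% without the filter (exact permutation p = 0.0887). The cause of these shifts was not tested.

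With the replicate block, on the 5 numbers that both groups share, there were 4 rises, 6 falls and 0 contigs on the 12 alone.

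Leaving out 1 array gave 103 to 208 rises, 59 to 171 falls, 7 to 72 contigs on the 12 alone, 165 to 465 on the 16 alone, 0 to 12 interaction calls and a variance share of 16.1% to 23.3%. Rises fell most without control replicates 3 (103), 6 (106), 2 (112) and 8 (118) and cyfluthrin replicate 3 (120). Falls numbered 59, 63, 65, 69 and 76 without control replicates 3, 2, 8, 6 and 1, and 84, 86 and 87 without cyfluthrin replicates 5, 3 and 2. The count on the 12 alone was 7 without cyfluthrin replicate 4, 13 to 22 without control replicate 2, 3, 6 or 8 or cyfluthrin replicate 3 or 5, and 29 without cyfluthrin replicate 2. The count on the 16 alone was 165, 170 and 465 without control replicate 4, cyfluthrin replicate 7 and cyfluthrin replicate 4. The 51 contigs kept their direction in every setting, except 1 each with spike-in scaling and normexp, and 48 were tested under the strictest filter. Most settings used the same arrays that had chosen these contigs, so this was in part fixed by that choice. The difference in correlation ran from -0.0470 (normexp) to -0.0177.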
